A study of Mus musculus with 75 samples.

Results

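Tpbg, Unc5b, Fstl4 and Pcdh8 are 4 of the 14261 genes measured in ribosome-bound RNA from the mouse visual cortex. They were taken from the table by symbol, having been chosen because their response to light in the SST line differed from that in other lines. The values in dark housing and after light are therefore the values that chose them, and those contrasts are given here as a description with no test.

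The mice were C57BL/6, 8 weeks old and carried 1 heterozygous copy of a Cre allele (Emx, Gad2, Sst, Vip or Pv) and, in all groups, a heterozygous RiboTag allele (Rpl22-HA). RiboTag adds an HA tag to a ribosomal protein in cells that express Cre, so that ribosomes of those cells can be pulled down with the RNA they hold. Each line was kept in standard housing, in complete darkness, or in darkness followed by 1, 3 or 7.5 h of light. Emx-Cre marks excitatory neurons and also glia, Gad2-Cre marks inhibitory neurons as a whole, and the Sst, Pv and Vip alleles mark separate inhibitory classes, so the Gad2 line holds the cells of the other 3 inhibitory lines too. A library was made from the pooled cortices of 3 mice, and p-values measure the spread between such pools. Values were given for 73 libraries in 25 groups. The dark and standard groups of the SST line (replicates 1 and 3) had 2 libraries each and the other 23 groups had 3. Levels are the authors' normalized signal, which is not scaled to gene length, so levels of different genes are not compared. The libraries held 7.28 to 52.3 M gene reads (median 24.8). In the SST line they held 25.2 to 38.1 M in dark, 18.1 to 29.9 M at 1 h, 31.7 to 45.7 M at 3 h, 12.2 to 23.4 M at 7.5 h and 13.8 to 30.6 M in standard housing. Sst itself averaged 85022 in the SST line, 50951 in the Gad2 line and 278 to 1047 in the Emx, PV and VIP lines. Pools of tissue cannot tell fewer cells apart from less RNA per cell.

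All 4 genes encode proteins of the cell surface or the space outside the cell. Tpbg encodes trophoblast glycoprotein, a membrane protein with leucine-rich repeats that dampens canonical Wnt signalling in zebrafish embryos. Unc5b encodes a receptor for netrins, the secreted guidance cues that steer growing axons and vessels. Fstl4 encodes a secreted follistatin-like protein that in mice binds the precursor of BDNF and limits its maturation. Pcdh8 encodes a protocadherin of the delta group, whose rat counterpart, arcadlin, is made after synaptic activity and draws N-cadherin off the synaptic membrane. Somatostatin neurons inhibit the dendrites of excitatory cells, and light after darkness is a standard way to set off activity-driven transcription in the visual cortex.

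The promoter windows of the 4 genes are shown because light-driven transcription is known to work through short elements near gene starts. Each window runs from 250 bases before to 50 after a gene's start, 5′ to 3′ on the gene's strand, in RefSeq's GRCm38.p6 build. That build is not mm9, the one named in the submitters' processing notes. All 4 genes had a window, Tpbg a pair of them, of which the upstream one is shown. Capitals mark matches to a CRE (TGACGTCA) or an AP-1 motif (TGANTCA).

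Tpbg, chr9:85842130-85842429, plus strand: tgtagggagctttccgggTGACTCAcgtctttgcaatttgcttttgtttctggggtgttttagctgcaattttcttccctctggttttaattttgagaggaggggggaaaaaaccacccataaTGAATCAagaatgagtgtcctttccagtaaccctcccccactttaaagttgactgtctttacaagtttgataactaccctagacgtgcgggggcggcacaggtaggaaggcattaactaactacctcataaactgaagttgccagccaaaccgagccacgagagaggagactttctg

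Fstl4, chr11:52764456-52764755, plus strand: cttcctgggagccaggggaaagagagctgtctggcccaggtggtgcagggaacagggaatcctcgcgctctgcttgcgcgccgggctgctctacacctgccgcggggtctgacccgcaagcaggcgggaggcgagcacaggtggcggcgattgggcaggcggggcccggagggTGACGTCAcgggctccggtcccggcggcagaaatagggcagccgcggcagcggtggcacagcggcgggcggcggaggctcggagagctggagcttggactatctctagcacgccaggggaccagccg

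Unc5b, chr10:60831532-60831831, minus strand: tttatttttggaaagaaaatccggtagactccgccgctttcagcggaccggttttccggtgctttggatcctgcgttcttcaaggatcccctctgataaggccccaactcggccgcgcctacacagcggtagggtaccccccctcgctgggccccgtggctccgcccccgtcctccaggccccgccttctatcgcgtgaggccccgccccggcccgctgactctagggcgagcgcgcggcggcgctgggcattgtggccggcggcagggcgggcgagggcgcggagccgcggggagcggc

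Pcdh8, chr14:79771263-79771562, minus strand: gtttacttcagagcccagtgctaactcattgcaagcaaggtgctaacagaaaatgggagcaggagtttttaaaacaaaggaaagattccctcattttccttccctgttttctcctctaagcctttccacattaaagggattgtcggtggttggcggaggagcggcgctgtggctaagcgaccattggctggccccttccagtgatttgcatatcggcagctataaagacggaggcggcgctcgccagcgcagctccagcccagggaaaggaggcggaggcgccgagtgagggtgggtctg

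The upstream Tpbg window held 2 AP-1 matches, TGACTCA 232 bases and TGAATCA 127 bases before the start. An AP-1 match was found in 7.81% of 32851 mouse windows of this length. The Fstl4 window held 1 CRE match 77 bases before the start, which also holds both of its matches to the shorter CRE core (TGACG), and it held 3 E-boxes (CANNTG), not capitalised. CRE, CRE core and E-box matches were found in 1.79, 20.8 and 72.3% of windows. No window of the 4 genes held an SRE core (CATATTAG, 0.374% of windows) or an EGR motif (GCGTGGGCG, 0.612%), and those of Unc5b and Pcdh8 and the downstream window of Tpbg held none of the 6 motifs on either strand. These are matches of letters and say nothing of which factor was bound.

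Tpbg in the SST line had the fourth mean of the 5 lines in dark, overlapping PV, and the highest mean of all at 7.5 h, overlapping VIP. Its signal was 146 and 141 in the SST dark libraries, 214, 273 and 229 at 1 h, and 644, 620.3 and 589 at 3 h. At 7.5 h it was 1707, 2216 and 3679. Every light library stood above both dark ones, with no overlap between successive times. The fitted difference from dark was 0.72 ± 0.26 (log2, SE) at 1 h, 2.1 at 3 h and 4.06 at 7.5 h, a 16.6-fold higher level. In size of rise at 7.5 h Tpbg placed 13 among the 14214 genes fitted in that line. Without the highest 7.5 h library (replicate 3) the log2 difference was 3.75. Its levels in standard housing, 304 and 279.8, also stood above both dark libraries, by 1.02 ± 0.28 (log2).

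Tpbg also stood above dark in the Emx, Gad2 and PV lines. At 7.5 h it ran from 1535 to 1581 in the Emx line against 496 to 589.8 in dark, from 707 to 800.1 in Gad2 against 286 to 317, and from 349.8 to 499.5 in PV against 93.1 to 174. None of these ranges overlapped. The log2 differences were 1.52 ± 0.19 in Emx, 1.35 ± 0.16 in Gad2 and 1.73 ± 0.24 in PV. In the VIP line, where Tpbg was highest of all lines in dark (1754 to 2652), the 7.5 h libraries lay within the same span (1856 to 2501) and the log2 difference was -0.04 ± 0.24. Relative to the VIP line, the SST level was 6.64% in dark, 10.5% at 1 h, 25% at 3 h and 121% at 7.5 h, where the libraries of both lines overlapped. It stood at 162% of the Emx level at 7.5 h, with no overlap.

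**Figure D1:**
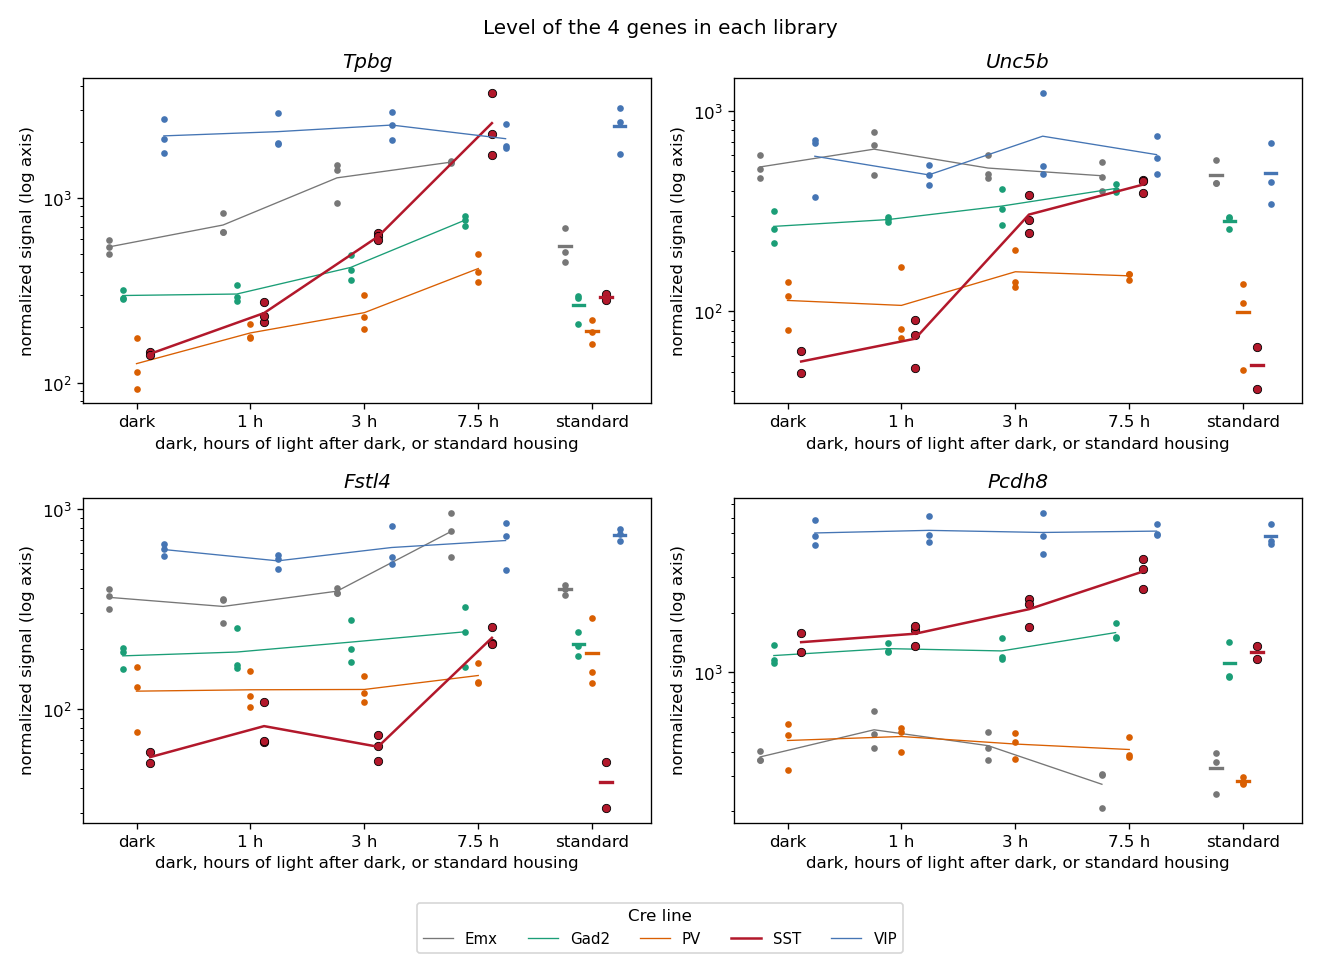
Normalized signal (log axis) of Tpbg, Unc5b, Fstl4 and Pcdh8 in each library, by condition (x axis) and Cre line (colour). Points are libraries, lines join the group means from dark to 7.5 h of light, and short bars are the means in standard housing. The SST line (red, outlined points) climbs in all 4 panels by 7.5 h, for Tpbg from 141 to 146 in dark to 1707 to 3679, while the VIP libraries at 7.5 h overlap their dark ones in every panel.

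Unc5b, the netrin receptor, had its lowest mean of all lines in the SST line in dark and after 1 h of light, when the SST libraries overlapped those of PV, and stood at the fourth place at 3 h and the third at 7.5 h. Its SST signal was 49.0 and 63.3 in dark, 90.1, 76.4 and 52.4 at 1 h, 286, 379 and 247 at 3 h, and 389.8, 451 and 445 at 7.5 h. The 1 h libraries overlapped the dark ones, and those of 3 and 7.5 h stood above them by more than the whole spread of either group. The log2 difference from dark was 0.35 ± 0.30 at 1 h, 2.40 ± 0.30 at 3 h (5.29-fold) and 2.92 ± 0.30 at 7.5 h (7.56-fold, place 32 of 14214). In standard housing the SST libraries, 66.2 and 41.1, lay around the dark ones.

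In no other line did Unc5b differ from dark by as much. At 7.5 h the Gad2 libraries (393 to 434) stood above their dark ones (219.8 to 318), by 0.64 ± 0.17 (log2). The PV libraries (143 to 154) stood just above their dark ones (81.0 to 139.8), by 0.44 ± 0.37. Emx and VIP libraries overlapped dark, with log2 differences of -0.15 ± 0.20 and 0.06 ± 0.35. The SST level was 10.7% of the Emx level in dark and 90.3% at 7.5 h, where the SST, Emx and Gad2 libraries overlapped.

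Fstl4, the secreted follistatin-like protein, stood clearly above its dark level in the SST line at the last time point, with a small difference at 1 h. Its SST mean was the lowest of the 5 lines in dark, at 1 h (overlapping PV), at 3 h and in standard housing. At 7.5 h it held the fourth place, overlapping Gad2. Its SST signal was 53.8 and 60.8 in dark, 68.3, 108 and 69.1 at 1 h, and 73.8, 65.1 and 54.8 at 3 h, which overlapped dark. At 7.5 h it was 255, 212 and 211, far above every earlier library of the line. The log2 difference was 0.48 ± 0.30 at 1 h, 0.16 ± 0.30 at 3 h and 1.96 ± 0.30 at 7.5 h (3.89-fold, place 79 of 14214). The standard-housing libraries held 54.3 and 31.9. The Emx line also had a higher level at 7.5 h, 571 to 956 against 314 to 399 in dark (1.07 ± 0.18, 2.09-fold). Gad2, PV and VIP libraries overlapped their dark ones at all 3 light times, with log2 differences at 7.5 h of 0.35 ± 0.26, 0.32 ± 0.31 and 0.12 ± 0.23.

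Pcdh8, the protocadherin, had its second highest mean of the 5 lines in the SST line before light, and the smallest SST fold of the 4 genes at 7.5 h. Its SST signal was 1259 and 1579 in dark, 1352, 1625 and 1718 at 1 h, 1699.6, 2328 and 2208 at 3 h, and 2628, 3304 and 3712 at 7.5 h. The 1 h libraries overlapped dark and the later ones stood above it. The log2 difference was 0.14 ± 0.20 at 1 h, 0.55 ± 0.20 at 3 h and 1.17 ± 0.20 at 7.5 h (2.26-fold, place 242 of 14214). In standard housing it was 1171 and 1364. In the Emx line the 7.5 h libraries (208 to 308) all stood below dark (363 to 401), with a log2 difference of -0.48 ± 0.22, after a 1 h level above dark (418 to 638, log2 0.43 ± 0.22). Gad2 stood above dark at 7.5 h (1484 to 1771 against 1113 to 1378, log2 0.38 ± 0.16), while PV (-0.12 ± 0.21) and VIP (0.04 ± 0.19) overlapped it. The SST line held the second place behind VIP in all 5 conditions, at 28.2% of the VIP level in dark and 62.6% at 7.5 h, with no overlap with VIP. The Gad2 libraries, in the third place, overlapped those of SST in dark, at 1 h and in standard housing.

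Counting genes whose light libraries all stood above all dark libraries, the SST line had 2 of the 4 at 1 h, 3 at 3 h and 4 at 7.5 h. Over all 14214 genes that share was 6.26, 8.74 and 9.95%, and since the genes were chosen on these contrasts nothing is read from the comparison. At 7.5 h the Emx line had 2 above (8.44% of all genes) and 1 below (10.4%), Gad2 had 3 above (5.18%), PV 2 (5.25%) and VIP 0 (6.17%). The VIP line had 0 at 1 h and 3 h as well (3.7 and 5.67% of all genes).

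**Figure D2:**
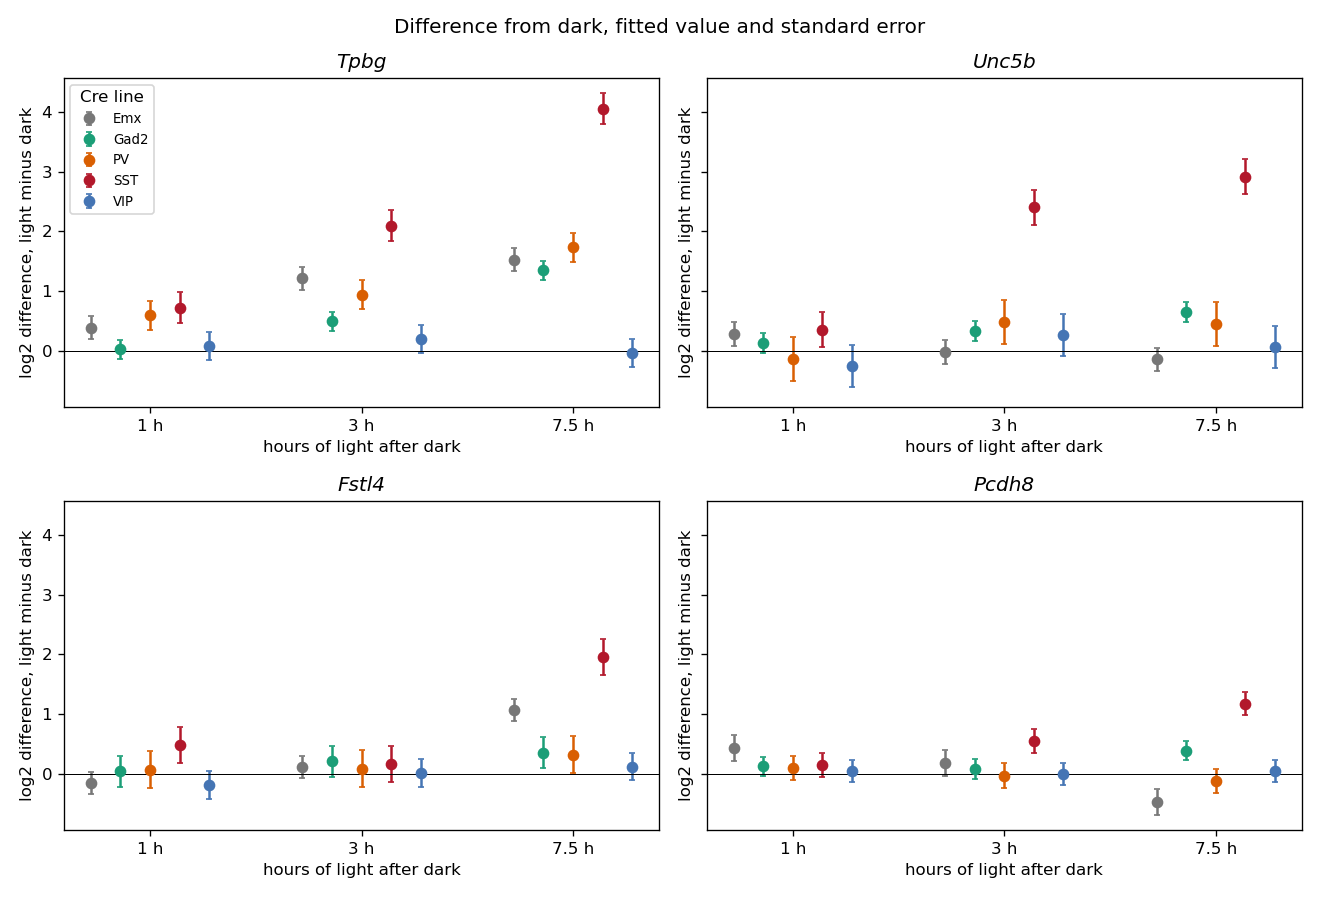
Fitted log2 difference between light and dark (y axis) after 1, 3 and 7.5 h (x axis) for each gene and Cre line (colour), with its standard error as bars. At 7.5 h the SST value is the highest of the 5 lines in each panel, 4.06 for Tpbg, 2.92 for Unc5b, 1.96 for Fstl4 and 1.17 for Pcdh8, and the Emx value for Pcdh8 lies below 0.

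The gap between the SST response and that of each other line, the quantity the genes were chosen on, was widest for Tpbg against VIP. At 7.5 h the SST difference from dark exceeded that of VIP by 4.10 ± 0.33 (log2), that of Gad2 by 2.71, that of Emx by 2.53 and that of PV by 2.32. For Unc5b these gaps ran from 2.28 (Gad2) to 3.07 (Emx), with an SE of 0.45, and were already 1.92 to 2.42 at 3 h. Fstl4 gaps ran from 0.89 against Emx to 1.84 against VIP (SE 0.38), and at 3 h from -0.04 to 0.15. Pcdh8 gaps ran from 0.79 against Gad2 to 1.65 against Emx (SE 0.29). The 4 gaps of a gene share the same SST libraries. In the SST line Tpbg libraries cleared the dark ones from 1 h on and Unc5b and Pcdh8 libraries from 3 h on, while Fstl4 libraries cleared them at 1 h and 7.5 h but not at 3 h.

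Early genes of the light response also had larger median differences in the SST line, and the part of this in the values above was not tested. For 10 immediate early genes of neurons (Fos, Fosb, Junb, Egr1, Egr2, Egr3, Egr4, Npas4, Nr4a1 and Arc), the median log2 difference from dark in the SST line was 5.22 at 1 h, 3.57 at 3 h and 3.62 at 7.5 h. In the other lines it was 3.58 to 3.96 at 1 h, 1.89 to 2.47 at 3 h and 1.95 to 3.13 at 7.5 h. In standard housing the median was 0.80 in the SST line and 2.07 to 2.82 in the others.

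Standard-housing libraries are not part of the contrasts of light against dark, and there the SST line was tested against each other line. These tests are not independent of the choice, since choosing on a large rise from dark favours a low SST level in dark. For Unc5b (means of 56.2 in dark and 53.6 in standard housing) and Fstl4 (57.3 and 43.1) the SST libraries of both conditions overlapped. How far RNA of other cells makes up these low SST levels of Unc5b and Fstl4 was not tested. Shares of other cells' markers are given below. Fstl4 was lower in the SST line than in all 4 others, Unc5b lower than in 3 of them, and Tpbg lower than in the VIP line. Pcdh8 was higher in the SST line than in Emx and PV, and lower than in VIP. A gene was called different at a limma adjusted p under 0.05 over 14198 genes together with a log2 difference of at least 1. By that rule 21.8% of all genes differed from Emx, 4.09% from Gad2, 11.1% from PV and 13.6% from VIP. Of the 4 genes, 3 were called against Emx, 2 against Gad2, 2 against PV and 4 against VIP.

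Fstl4 in standard housing was 54.3 and 31.9 in the SST line, 371, 398 and 417 in Emx, and 183, 205 and 242 in Gad2. It was 134, 153 and 283 in PV and 686, 749.7 and 792 in VIP. No range of another line overlapped that of SST. The level was 9.28-fold lower in SST than in Emx (limma adjusted p = 3.42e-14), 4.92-fold lower than in Gad2 (1.60e-08), 4.24-fold lower than in PV (4.13e-08) and 17.4-fold lower than in VIP (7.09e-18). Called lower in SST were 13.7% of all genes against Emx, 2.92% against Gad2, 3.93% against PV and 8.06% against VIP.

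Unc5b in standard housing was 66.2 and 41.1 in the SST line, against 437 to 568 in Emx, 259 to 296 in Gad2 and 343 to 688 in VIP, with no overlap. It was 8.99-fold lower than in Emx (limma adjusted p = 1.47e-11), 5.31-fold lower than in Gad2 (3.15e-07) and 8.86-fold lower than in VIP (3.96e-11). The PV libraries, 51.0, 109.8 and 136, overlapped those of SST, and the log2 difference of -0.80 ± 0.33 was not called (limma adjusted p = 0.0926). With the replicate number as a block it was -0.67 (limma adjusted p = 0.0450), short of the size required. Without PV replicate 1, the lowest of these, it was -1.21 and was called (limma adjusted p = 0.00747).

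Tpbg in standard housing was 304 and 279.8 in the SST line and 1726, 2572 and 3067 in VIP, 8.16-fold lower in SST (limma adjusted p = 3.14e-15). Against Emx (451 to 688) the log2 difference was -0.89 ± 0.24 (limma adjusted p = 0.00291), short of the size required for a call. Without Emx replicate 1 it reached -1.02 and was called (limma adjusted p = 0.00190). Against Gad2 (208 to 295, overlapping) it was 0.16 ± 0.24 (limma adjusted p = 0.870), and against PV (163 to 219, no overlap) 0.62 ± 0.24 (limma adjusted p = 0.0667), neither of them called. With the replicate number as a block the adjusted p against PV was 0.00330, with a log2 difference of 0.69 that still missed the size required.

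Pcdh8 in standard housing was 1171 and 1364 in the SST line, against 245, 354 and 395 in Emx and 273, 278 and 299 in PV. The log2 difference was 1.96 ± 0.22 against Emx (limma adjusted p = 5.43e-11) and 2.15 ± 0.22 against PV (limma adjusted p = 6.56e-12), where 8.11% and 7.17% of all genes were called higher in SST. The VIP libraries held 4429 to 5603, and the SST level was 3.83-fold lower (limma adjusted p = 1.63e-10). The Gad2 libraries (949.6 to 1423) overlapped those of SST, with a log2 difference of 0.21 ± 0.22 that was not called (limma adjusted p = 0.757).

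**Figure D3:**
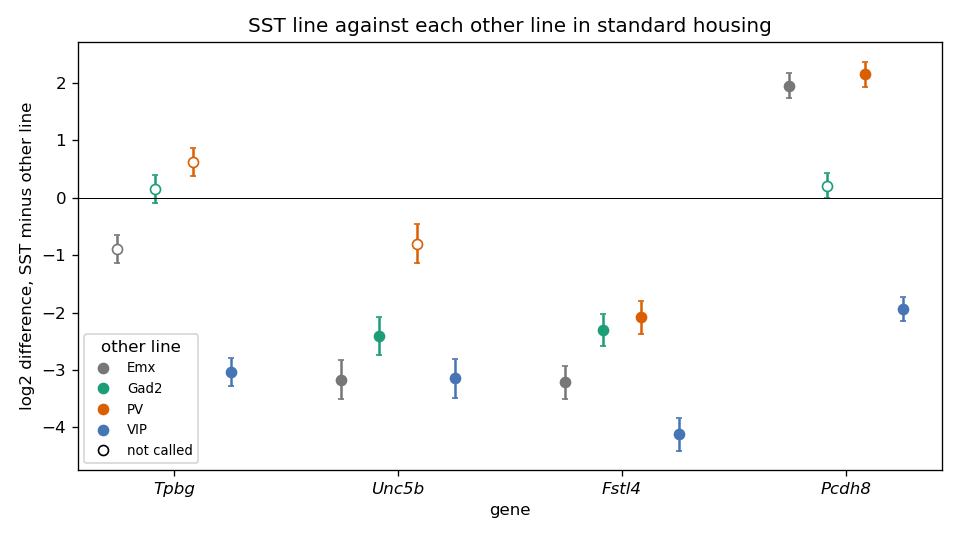
Fitted log2 difference between the SST line and each other line in standard housing (y axis, SST minus other, with standard error) for the 4 genes (x axis); filled points were called, open points were not. Fstl4 lies below 0 against all 4 lines, down to -4.12 against VIP, while Pcdh8 lies near 2 above 0 against Emx and PV.

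In standard housing against dark, apart from Tpbg in SST, the libraries cleared the dark ones only for Fstl4 in VIP (above, log2 0.25 ± 0.23) and Pcdh8 in PV (below, log2 -0.64 ± 0.21). In the SST line in standard housing 1 of the 4 genes stood above both dark libraries, beside 9.44% of all genes. In VIP it was 1 of 4 beside 3.67% and in PV 1 below beside 3.64%.

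Marker genes of other cells were also measured in the SST libraries. Each share sets the SST mean of a condition against the marker's mean over all conditions of its own line. Slc17a7 loads glutamate into the vesicles of cortical excitatory neurons. In SST dark libraries it stood at 7.66% of its Emx mean, and at 7.5 h at 8.36% (6.55 to 9.37% over the conditions). Pvalb stood at 8.59 to 11.8% of its PV level. Vip stood at 0.128% of its VIP-line level in dark, 0.0862% at 1 h, 0.0759% at 3 h, 0.696% at 7.5 h and 0.646% in standard housing. At these shares the VIP line's Tpbg level at 7.5 h comes to 14.5 of the 2534 measured in SST, and the Emx line's to 130.4. For Unc5b the Emx share comes to 40.2 of the 56.2 measured in SST in dark and to 39.7 of 429 at 7.5 h. For Fstl4 it comes to 27.6 of 57.3 in dark and 64.2 of 226 at 7.5 h, and for Pcdh8 to 28.8 of 1419 and 22.9 of 3215. The PV share comes to 13.3 for Unc5b and 14.4 for Fstl4 in dark, and to 16.0 and 15.6 at 7.5 h. In standard housing the Emx, PV and VIP shares come to 31.5, 9.86 and 3.17 of 53.6 for Unc5b. For Fstl4 they come to 25.9, 18.9 and 4.80 of 43.1. For Tpbg they come to 36.0, 18.9 and 15.9 of 292, and for Pcdh8 to 21.7, 28.2 and 31.5 of 1268. How much of the SST level was RNA of other cells was not tested.

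Of the whole marker lists, 12 of 12 excitatory genes were detected, and their summed level in the SST line was 23882 to 33449 in dark and 19990 to 32997 at 7.5 h. The 8 VIP markers summed to 5017 to 5843 in dark and 5403 to 7590 at 7.5 h, and the 10 SST markers to 159623 to 167424 and 182461 to 221980. The 10 astrocyte markers summed to 19135 to 22156 in dark and 18227 to 24931 at 7.5 h, with 1 SST library at 1 h reaching 49780. The 9 endothelial markers measured summed to 465 to 473 in dark, 265 to 412 at 3 h and 390.2 to 499 at 7.5 h, without overlap at 3 h. The 10 microglial markers summed to 991 to 1566 in dark and 1013 to 1190.1 at 7.5 h, and of these Cx3cr1 was 73.8 and 121 in dark and 33.4 to 62.7 at 1 h, without overlap. The 8 PV markers, 10 oligodendrocyte markers and 6 markers of oligodendrocyte precursors overlapped dark at 7.5 h. Of single genes, Vip (46.6 to 162 in dark, 399.98 to 687 at 7.5 h), Gad2 (61948 to 64117, 65828 to 111650) and Sst (69334 to 73770, 74122 to 92909) stood above dark at 7.5 h, and Aqp4 of astrocytes (235 to 302, 197 to 224) below. No listed marker was at 0 in all SST libraries. Over all conditions the excitatory markers summed to a median of 63017 in the VIP line, 27564 in the SST line and 141314 in the Emx line. The astrocyte markers summed to a median of 62088 in VIP, 20539 in SST and 186801 in Emx, so the VIP libraries also held RNA of other cells. The part of these differences in the results was not tested.

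The genes that work with these 4 were looked at in the SST line, each list without the gene itself. Over all 14214 genes, limma called 47 at 1 h (0.331%), 60 at 3 h (0.422%) and 158 at 7.5 h (1.11%) at an adjusted p under 0.05. With the replicate number as a block these counts were 195, 773 and 2415. Single libraries moved them by over 1.5 times: without SST dark replicate 1 they were 30, 39 and 57, and without dark replicate 3 they were 29, 36 and 58. Without 1 h replicate 2 the first was 31, without 3 h replicate 2 the second was 35, and without 7.5 h replicate 2 or 3 the third was 97 or 92.

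In the list of netrins, their DCC, neogenin and UNC5 receptors and the partners of these, 0 of 22 genes was called at any time, with a median log2 difference of 0.04 at 7.5 h beside -0.02 for all genes. With the replicate block 1 rose and 3 fell at 7.5 h. The largest difference at 7.5 h was that of Hfe2, a protein that binds neogenin, at -1.77 ± 0.61 (limma adjusted p = 0.293), between a mean of 20.4 in dark and 5.84 in light. The Wnt list of TPBG partners, frizzleds, ligands and inhibitors had 0 of 22 called at any time, with a median of -0.18 at 7.5 h. With the block 1 rose and 1 fell at 3 h, and 1 rose and 2 fell at 7.5 h. Its largest difference at 7.5 h, that of the inhibitor Dkk2 (-1.53 ± 0.94), was between levels of 3.14 and 0.341. The follistatin and SPARC list had 0 of 12 called at any time, with a median of -0.10 at 7.5 h, and 3 that fell with the block. Its largest difference was that of Tmeff2, a membrane protein with follistatin domains, at -0.47 ± 0.17 (limma adjusted p = 0.312).

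In the list of BDNF, its receptors, sorting proteins and proteases, 0 of 12 genes were called at 1 h, 1 rose at 3 h and 2 rose at 7.5 h, with a median of 0.53 at 7.5 h. With the block 1, 4 and 6 rose, and 1 fell at 7.5 h. Among those that rose were Bdnf at 1 h (limma adjusted p = 6.70e-06) and Pcsk1 at 3 h (5.68e-06), neither called without the block. At 7.5 h both were called with the block as well (1.13e-10 and 6.28e-07). Bdnf, the neurotrophin whose precursor the FSTL4 protein binds, averaged 71.6 in dark, 336 at 3 h and 453 at 7.5 h. It was 4.74-fold higher at 3 h (limma adjusted p = 0.00149) and 6.30-fold higher at 7.5 h (3.34e-04). The 3 h call was lost when replicate number 2 was left out of the line (limma adjusted p = 0.0503). Pcsk1, a protease of prohormones, was 2.91-fold higher at 7.5 h, at 255 in dark and 756 in light (limma adjusted p = 0.0156). That call was lost without SST dark replicate 1 (limma adjusted p = 0.0773), dark replicate 3 (0.208) or 7.5 h replicate 3 (0.0641), and at 3 h, where Pcsk1 was not called (0.0625), it was called without 1 h replicate 1 or 2 or 7.5 h replicate 3.

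Among 15 other delta protocadherins, classical cadherins and kinases of the PCDH8 pathway, 0 were called at 1 h and 3 h and 1 rose at 7.5 h. With the block 2 rose at 3 h, and 4 rose and 1 fell at 7.5 h. The gene called was Map2k3, a kinase that activates p38, at 69.2 in dark and 157 in light (2.25-fold, limma adjusted p = 0.0484), a call lost without any 1 of the 13 SST libraries (adjusted p 0.0575 to 0.417). The list's median was 0.03 at 7.5 h.

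**Figure D4:**
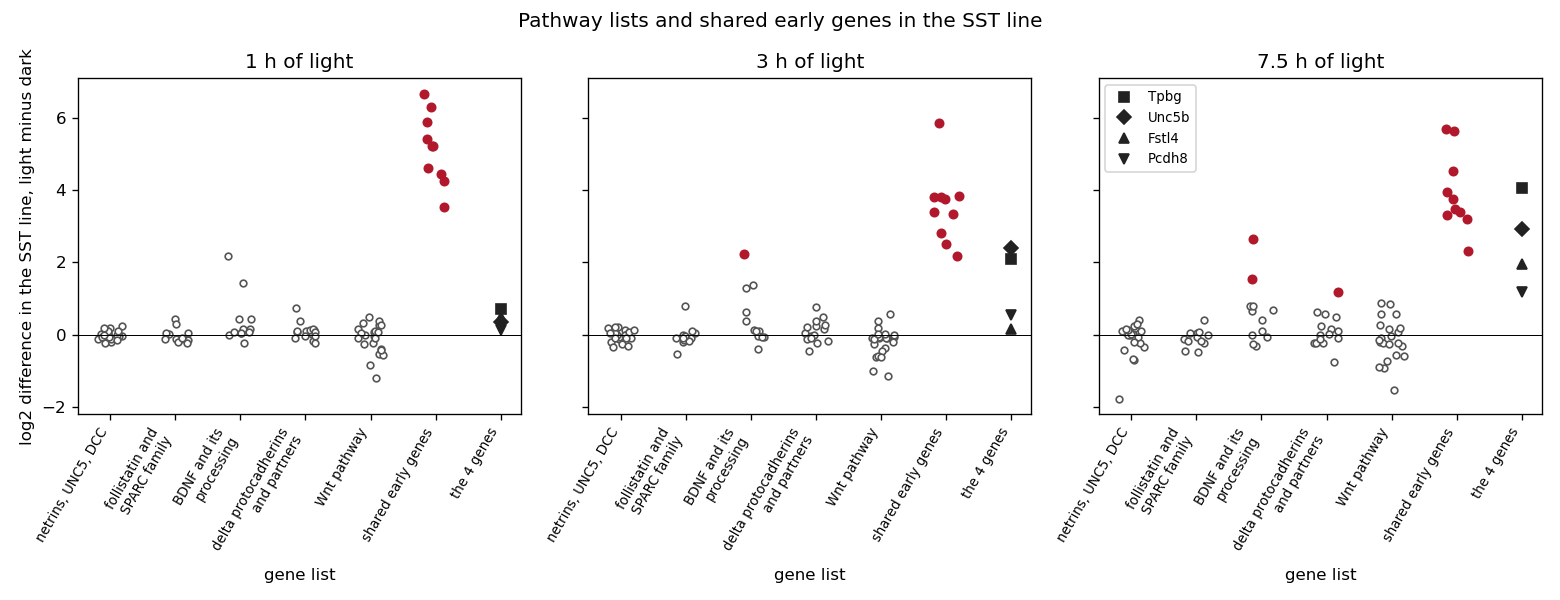
Log2 difference between light and dark in the SST line (y axis) for each gene of the 5 pathway lists and the 10 shared early genes, with the 4 genes on the right, at 1, 3 and 7.5 h. Filled red circles had a limma adjusted p under 0.05 and open circles did not; the 4 genes (black) carry no test. At 7.5 h the list medians run from -0.18 (Wnt) to 0.53 (BDNF), with 2 genes of the BDNF list and 1 of the protocadherin list called, while the early genes have a median of 3.62.

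The genes whose levels followed each of the 4 most closely were sought among 12304 genes by Pearson's r over the 25 group means, in which the 5 groups of a line share its cells. Most like Tpbg were Tle3 (0.917), Pak2, Pcnx, Med13 and Gatad2b, all highest in a VIP group. Most like Unc5b were Ncoa6 (0.910), Tshz1, Gcnt2, Hip1 and Tle3, and most like Fstl4 were Gse1 (0.942), Hip1, Dlgap4, Trib2 and Orai2. Most like Pcdh8 were Ubqln2 (0.980), Npas3, Sox2ot, Aff4 and Mapt. Among the 4 genes, r was 0.851 for Unc5b with Fstl4, 0.805 for Tpbg with Unc5b and 0.240 for Fstl4 with Pcdh8.

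Over the 15 differences between light and dark, 3 per line, other genes stood nearest. Most like Tpbg were Itgav (0.941), Mprip, Mfhas1 and Cd68, and most like Unc5b were Ube2z (0.958), Pkig, Lphn1, Tbc1d9 and Tfe3. Most like Fstl4 were Dgki (0.906), Agap1, Zfp532, Spats2 and Mical2, and most like Pcdh8 were Sash1 (0.904), Clic4, Ptprd, Cgref1 and Adcyap1r1. Here r was 0.837 for Tpbg with Fstl4, 0.827 for Tpbg with Unc5b and 0.817 for Unc5b with Pcdh8, but 0.435 for Fstl4 with Pcdh8. The 3 differences of a line share its dark libraries, the differences chose the 4 genes, and these correlations describe the points without a test.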

How the data were processed

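Ribosome-bound RNA was purified by RiboTag from pooled cortices, amplified linearly by SPIA, which suits nanogram inputs, and read from 1 end over 50 bases, per the labels' protocols. The deposited values are the authors' normalized signal per gene and library, with no unit stated. Per the submitters' processing notes, which give no order or settings, the tools were BWA, Cuffdiff 2.2.1, Cuffnorm, Bowtie2 2.1.0.0 and TopHat2 2.0.13, and the build was mm9. Low values lay on steps, which read as gene reads divided by a factor per library: within a tolerance of 0.1 read, 92.9 to 96.4% of values up to 20 reads were whole. Depth was estimated from these steps (1 read worth 0.422 to 3.40). SPIA gives no molecule counts, so depth bounds counting error only.

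From 14284 rows, 23 whose symbols had become dates were dropped. Replicate 2 of the SST dark and of the SST standard group had an empty column. A gene entered a fit if 3 or more libraries reached a signal of 1. Genes at 0 in exactly 1 library, with a median of at least 50 in the others, were set aside (2 to 23 per line, 62 in the fit of all lines). Limma 3.58.1 in R 4.3.3 (statmod 1.5.0) was run on log2(signal + 1), trended and robust, with two-sided p-values adjusted by Benjamini-Hochberg over all genes of a contrast, once per line and once over all groups. Fold changes are on that scale and understate changes of low genes. Methods were tested on simulated data.

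The labels number the replicates. Deviations from group means of libraries with the same number correlated at 0.172 to 0.709 between lines in standard housing (11930 genes). Within the SST line they correlated at 0.410 to 0.749 (lowest of any line 0.109), so the numbers were taken to pair the libraries. Fits with the number as a block are given where they change a call or a count. The SEs printed for the 4 genes are those without the block. In the SST line at 7.5 h the SE for Pcdh8 was 0.20 without the block and 0.08 with it, and for Tpbg 0.26 and 0.25.

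The members and lists were chosen with earlier results of these data known. Named besides the 4 genes are the 5 genes most like each by Pearson's r (highest group mean at least 50, with 1 gene not reported here), list genes called in the SST line at a light time, or else the one with the largest difference at 7.5 h, and the early genes as a median. Motifs were searched in RefSeq promoter windows (GRCm38.p6) on both strands.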

Additional observations from a re-analysis of the deposited data

Results flagged for a closer look

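Pcdh8 was flagged at 7.5 h of light because its libraries moved in opposite directions in different lines, every one above all dark libraries in one line and every one below in another. The SST line stood above dark and the Emx line below it, and the fitted SST difference exceeded the Emx one by 1.65 (log2). The Gad2 line stood above dark as well, and its difference exceeded that of Emx by 0.861 (log2). Neither difference between lines was tested, the first because it belongs to the values that chose the gene. With single libraries left out, the Pcdh8 difference at 7.5 h ran from 1.01 to 1.34 in SST and from -0.57 to -0.29 in Emx. In Gad2 it ran from 0.30 to 0.48. Groups of 3 or fewer libraries allowed no formal test for outlying samples.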

How the results depend on the processing

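Pseudocounts of 0.1 and 5, no filter or one of 10, TMM scaling and keeping the genes with a lone 0 changed no call and no count by over 1.5 times, and moved no value of the 4 genes by over 1 SD. The replicate block changed no call of the 4 genes between lines in standard housing. It raised the SST-line counts of called genes from 47 to 195 at 1 h, from 60 to 773 at 3 h and from 158 to 2415 at 7.5 h. For standard housing against dark limma called 0 genes in the SST line (275 at an unadjusted p under 0.05), and 49 with the block. Leaving replicate number 2 out of the SST line, an alternative added after the empty columns were seen, gave 21, 21 and 41 called at the 3 light times. Over single libraries left out, these counts ran from 29 to 49, from 35 to 59 and from 57 to 143. The Tpbg difference at 7.5 h ran from 3.75 to 4.30, its SST difference from Emx in standard housing from -1.02 to -0.72, and that of Unc5b from PV from -1.21 to -0.46. Where an SST dark or standard library was left out, the lone one was assumed to vary like the other groups. Standard housing minus dark in SST ran from -0.43 to 0.25 for Unc5b and from -0.82 to -0.07 for Fstl4. Causes were not tested. A planned count test on recovered reads was not run, since the low values were not whole reads throughout. SST dark and standard housing, with 2 libraries each, limit every SST contrast.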
